A study of Rattus norvegicus with 13 samples.

Results

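The genes described here encode the machinery that stores neurotransmitter vesicles at the presynaptic terminal, docks and primes them, and fuses them with the plasma membrane when calcium enters. The list named 41 genes. A gene entered with the probe set that carried its symbol alone on the array platform, and with the brightest one where there were several, which gave 40 genes of the 14506 with such a probe set. Napb was the 1 gene of the list without one and is not analysed here. Stx1a had 2 probe sets with identical values, so they count as 1 measurement.

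The samples were brains without the cerebellum of inbred F344 rats, all male, killed at 15 months of age. The mothers of the control group (7 arrays) ate a control diet and those of the fructose group (6 arrays) a high fructose diet, in each case from day 1 of gestation through lactation. All offspring were weaned at day 20 onto the same chow, so the groups differed in the diet of the mother and not in their own later diet. The labels give neither litter nor animal for a sample, and the p-values therefore measure the spread between these samples, which may be technical. Values are log2 signals, on which a step of 1 is a doubling, and signals of different genes are not compared because each probe set has its own response.

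In the textbook account, fusion is driven by SNARE proteins: synaptobrevins (Vamp1, Vamp2) on the vesicle pair with syntaxin 1 and SNAP-25 on the plasma membrane. Synaptotagmins sense calcium, complexins clamp and then promote fusion, Munc13 proteins (the Unc13 genes) and RIM proteins prime vesicles at the active zone, and NSF with its SNAP adaptors takes the spent complex apart. Neurons choose among paralogues. In the forebrain, Syt1 serves most synapses, while Syt2 and Vamp1 are characteristic of fast-firing neurons such as parvalbumin interneurons and many brainstem neurons.

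3 arrays stood apart, and results that rest on them are given with and without them. Slc17a6, the vesicular glutamate transporter of thalamus, hypothalamus and brainstem, had a signal of 9.15 in control replicate 8, 7.83 in fructose replicate 3 and 8.04 in fructose replicate 4, against 6.07 to 6.82 in the other 10 arrays. The mean of 10 measured thalamus and brainstem markers, which include Slc17a6 itself, was 7.84, 7.34 and 7.49 in those arrays, with 7.09 to 7.30 elsewhere. The list is therefore not separate from the choice of those arrays, and its markers did not all rise there. Ntng1 was highest there, at 9.09, 9.69 and 9.82, with 7.96 to 8.61 elsewhere. Lef1 lay within the range of the other arrays, and Prkcd was lowest of all in fructose replicate 3, at 7.62. All 15 neuron markers were measured, and their mean per array ran from 10.76 to 10.90 in control and from 10.81 to 10.94 in fructose samples. The cerebellar granule cell gene Gabra6 lay between 5.41 and 6.01. The arrays with the narrowest value distributions were control replicates 1 and 2, with interquartile ranges of 2.19 and 2.15 against 2.27 to 2.50 in the others. In bulk tissue, fewer cells of a type and less RNA per cell cannot be told apart.

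The promoters of 4 members are shown because the signals of these genes moved together from array to array, as described below. Other members that moved with them, such as Syt12 and Rims2, are not shown. Each window runs from 250 bases before to 50 bases after the annotated start of the gene in RefSeq, build GRCr8, and is written 5′ to 3′ on the strand of the gene. Capitals mark matches, on either strand, to the letters GGGCGG (a GC box), TGACGTCA (a cAMP response element), AAGGTCA (the core site of estrogen-related receptors), TATAAA (the TATA motif) or CCAAT (the motif of that name).
Syt2, chr13:48736872-48737171, plus strand: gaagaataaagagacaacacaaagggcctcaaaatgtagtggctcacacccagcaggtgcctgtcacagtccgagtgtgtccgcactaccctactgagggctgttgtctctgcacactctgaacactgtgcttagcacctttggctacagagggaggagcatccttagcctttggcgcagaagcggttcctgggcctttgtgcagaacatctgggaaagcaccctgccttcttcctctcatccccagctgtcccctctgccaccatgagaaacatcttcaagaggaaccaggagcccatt
Vamp1, chr4:159698644-159698943, plus strand: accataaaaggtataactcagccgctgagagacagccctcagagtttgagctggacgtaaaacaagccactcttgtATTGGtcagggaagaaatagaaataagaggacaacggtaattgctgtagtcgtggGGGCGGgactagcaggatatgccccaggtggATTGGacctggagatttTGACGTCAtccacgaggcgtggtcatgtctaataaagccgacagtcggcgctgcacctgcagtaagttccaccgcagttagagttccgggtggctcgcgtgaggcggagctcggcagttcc
Cplx1, chr14:1328823-1329122, plus strand: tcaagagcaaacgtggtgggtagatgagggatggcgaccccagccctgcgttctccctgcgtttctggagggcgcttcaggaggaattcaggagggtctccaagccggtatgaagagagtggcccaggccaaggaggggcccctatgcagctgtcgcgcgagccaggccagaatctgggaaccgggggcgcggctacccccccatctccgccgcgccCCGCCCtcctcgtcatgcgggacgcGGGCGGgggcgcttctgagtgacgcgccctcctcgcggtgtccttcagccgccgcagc
Rims3, chr5:139714070-139714369, plus strand: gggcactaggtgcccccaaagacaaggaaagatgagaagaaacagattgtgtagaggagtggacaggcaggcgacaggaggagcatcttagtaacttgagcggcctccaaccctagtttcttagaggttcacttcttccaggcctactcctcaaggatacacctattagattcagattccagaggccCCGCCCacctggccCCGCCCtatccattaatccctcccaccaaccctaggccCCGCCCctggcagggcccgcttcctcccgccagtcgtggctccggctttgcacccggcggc
The Syt2 window held no match to these motifs. Its last 50 bases hold an ATG just after the annotated start, so this window may not be the promoter in use. Other starts of the gene were not examined. The Vamp1 window held 1 GC box, 1 cAMP response element and 2 CCAAT motifs, the Cplx1 window 2 GC boxes and the Rims3 window 3. None of the 4 held the TATA motif or the estrogen-related receptor core. GC boxes were present in 33.1% of all 33469 windows of this length and in the windows of 24 of the 31 members that had one. For each motif a member counted if any of its windows matched, whereas the share over all is per window. The member counts and these shares are therefore not like for like. The cAMP response element was present in 1.83% of all windows and in those of Vamp1, Syn1 and Napa. The TATA motif was present in 14.2% of all windows and in those of 0 of the 31 members. CCAAT motifs were present in 37.5% of all windows and in those of 13 members, and the estrogen-related receptor core in 4.61% and in that of Syt6. The GC content was 54.0% for Syt2, 53.3% for Vamp1, 68.7% for Cplx1 and 59.0% for Rims3, with a median of 51.7% over all windows. A match is a stretch of letters and not a measured binding site.

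The first question was how these genes differed between offspring of the 2 maternal diets. No member passed an adjusted p of 0.05 in limma fitted over all 15633 probe sets with a gene, of which 0 (0%) passed, and the smallest adjusted p over all of them was 0.9998. At an unadjusted p under 0.05 there was 1 of 40 members, the complexin gene Cplx1, which is 2.5% against 2.12% of all genes and 2.23% of all probe sets, so the share was close to the background. The 95% interval stayed inside a 1.2-fold change for 23 of 40 members (57.5%), against 84.5% of all genes, inside 1.5-fold for 37 and inside 2-fold for 40. The 3 members whose intervals reached past 1.5-fold were Syt2, Unc13c and Rims3. In the count of directions, 28 of 40 members were higher in the fructose group, with a median difference of 0.03. Over all genes 54% were higher, with a median of 0.0055. The brightest of 5 equal classes of genes by signal, which held 27 of the 40 members, had 68.7% higher and a median of 0.02. After renewed quantile normalization or cyclic loess, 24 of 40 members were higher, with a median difference of 0.0147 and 0.0068. The share of all genes higher after these scalings is not given here. Of the 15 neuron markers, 12 were higher in the fructose group, with a median difference of 0.05 and 2 at an unadjusted p under 0.05 in limma, and their part in the members' direction was not tested.

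**Figure D1:**
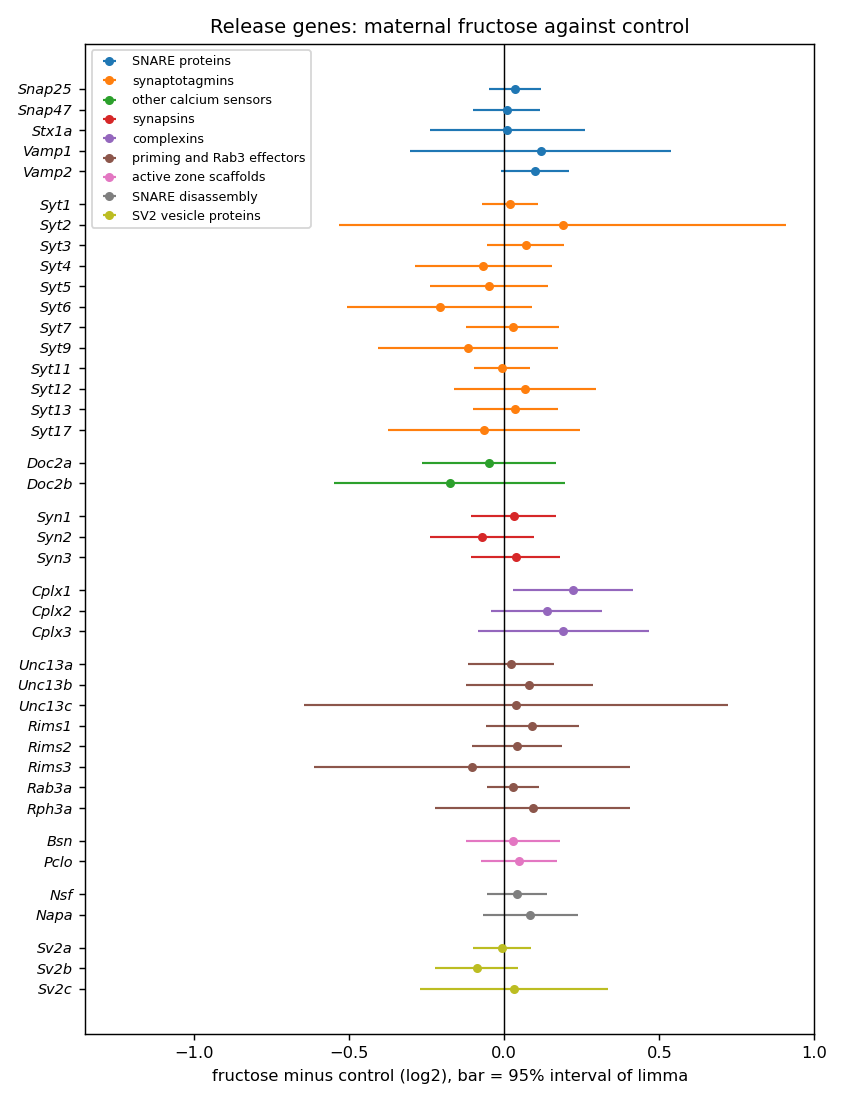
Difference between the maternal fructose and control groups (log2, x axis) for the 40 release genes (y axis), with the 95% interval from limma, coloured by role. The interval excludes 0 for Cplx1 (0.03 to 0.41) and spans 0 for the other 39, and it is widest for Syt2 and Unc13c.

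Among the SNARE genes, all 5 had a difference above 0 on the deposited values, but none passed, and Snap47 and Stx1a turned below 0 after quantile normalization and after cyclic loess. Snap25, the plasma membrane SNARE of most central synapses, had signals from 13.20 (control replicate 8) to 13.40 with a median of 13.36 in control samples and from 13.31 to 13.40 with a median of 13.38 in fructose samples. The groups overlapped, and the difference was 0.03 with a 95% interval from -0.05 to 0.12. Vamp2, the main vesicle SNARE of the forebrain, ran from 11.27 to 11.56 with a median of 11.42 in control and from 11.42 to 11.62 with a median of 11.51 in fructose samples. No fructose array lay below the control mean, but the lowest, at 11.4182, was level with that mean of 11.4181. Only 1 lay above the highest control array. Its difference was 0.10 ± 0.05 (SE) with an unadjusted p = 0.0703 in limma, and it was 0.07 after quantile normalization and 0.07 without the 3 arrays high in Slc17a6. Stx1a, which encodes syntaxin 1A, ran from 10.46 to 11.05 with a median of 10.90 in control and from 10.33 to 11.07 with a median of 10.93 in fructose samples. The low values were single arrays, control replicate 8 and fructose replicate 4, both high in Slc17a6, and the difference was 0.01 with an interval from -0.24 to 0.26. Snap47, a SNAP-25 relative, differed by 0.01 with an interval from -0.10 to 0.11.

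Complexins bind the assembled SNARE bundle, and the 3 measured were the role with the highest median difference, 0.19. All 3 had a higher mean in the fructose group, also after quantile normalization and cyclic loess, but Cplx3 turned without the 3 arrays high in Slc17a6. Cplx1 ran from 10.41 (control replicate 8) to 10.85 (control replicate 3) with a median of 10.56 in control samples. In fructose samples it ran from 10.62 (fructose replicate 4) to 11.05 (fructose replicate 1) with a median of 10.91. 4 of the 6 fructose arrays lay above every control array, and the 2 that did not were replicates 3 and 4. The difference was 0.22 ± 0.09 (SE), or 1.17-fold with an interval from 1.02 to 1.33, at an unadjusted p = 0.0274 and an adjusted p = 0.9998 in limma. Leaving out any 1 of 6 arrays (control replicate 1 or 8, or fructose replicate 1, 2, 7 or 8) took the unadjusted p to between 0.0519 and 0.0714. The difference was 0.19 to 0.20 after quantile normalization and cyclic loess, with unadjusted p-values of 0.0684 and 0.0605. Cplx2 ran from 11.05 to 11.46 with a median of 11.24 in control and from 11.15 to 11.69 with a median of 11.40 in fructose samples. The groups overlapped over most of their range, and its difference was 0.14 ± 0.08 (SE). Cplx3, known from retina and from deep cortical neurons, ran from 7.66 to 8.39 with a median of 7.99 in control and from 7.96 to 8.73 with a median of 8.11 in fructose samples. Its highest array was fructose replicate 4 and its lowest control replicate 8. The difference of 0.19 ± 0.13 (SE) became -0.03 without the 3 arrays high in Slc17a6, so the sign turned with them.

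**Figure D2:**
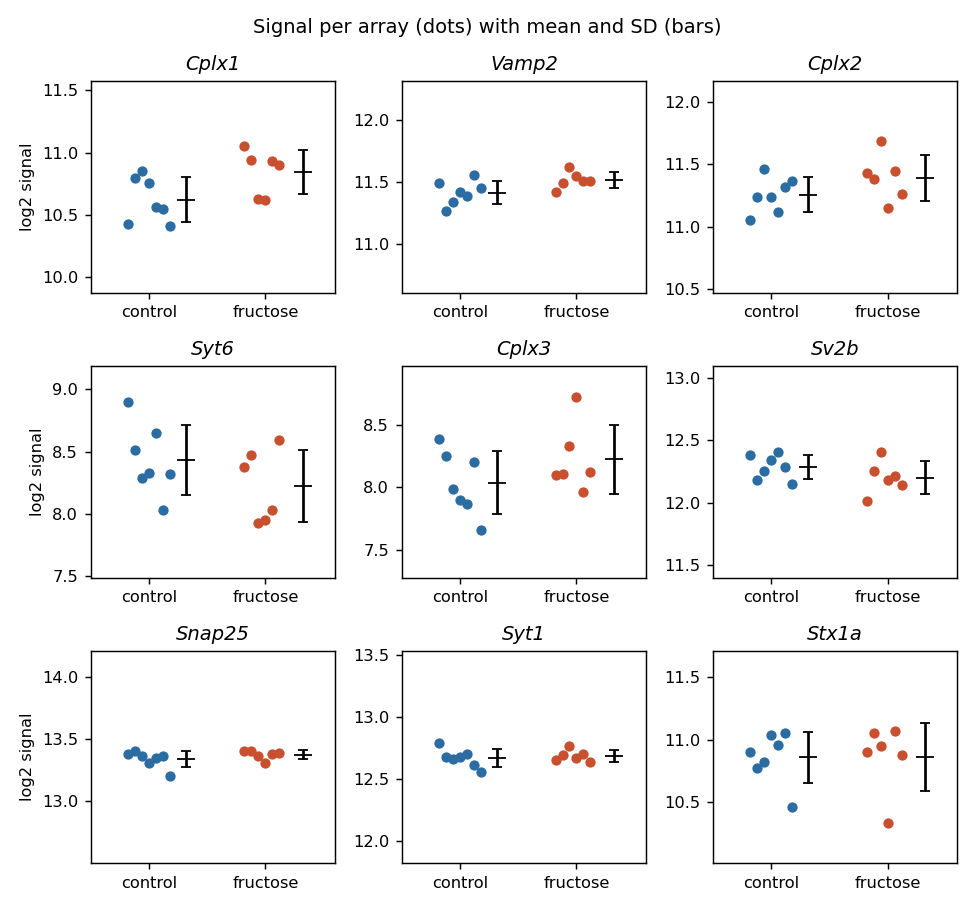
Log2 signal of 9 release genes in each array (dots, blue control and red fructose), with the group mean and SD as black bars and the same span on each y axis. The top rows hold the 6 members with the smallest unadjusted p, the bottom row Snap25, Syt1 and Stx1a; the groups overlap in every panel, and in Stx1a 1 low array in each group sets the spread.

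Of the 12 synaptotagmin genes, the fructose mean was above the control mean in 6 and below it in 6, with a median difference of 0.0052; after quantile normalization Syt1 and Syt7 were below 0 as well. Syt1, the fast calcium sensor of most forebrain synapses, ran from 12.56 to 12.79 with a median of 12.68 in control and from 12.64 to 12.77 with a median of 12.68 in fructose samples. The groups overlapped and the difference was 0.02 with an interval from -0.07 to 0.11. Its sign turned after both renewed normalizations and without the 3 arrays high in Slc17a6. Syt6 ran from 8.03 to 8.90 with a median of 8.33 in control and from 7.93 to 8.59 with a median of 8.21 in fructose samples. This was the most negative difference of any member, -0.21 ± 0.14 (SE), and it was -0.08 without the 3 arrays high in Slc17a6. Syt3 ran from 8.30 to 8.73 with a median of 8.43 in control and from 8.49 to 8.62 with a median of 8.56 in fructose samples, a difference of 0.07. 5 of the 6 fructose arrays were above the control mean, all within the control range. Syt4, Syt5, Syt9 and Syt17 differed by -0.07, -0.05, -0.12 and -0.07. Syt7, a slow, high-affinity calcium sensor, differed by 0.03, Syt12 by 0.07, Syt13 by 0.04 and Syt11, which does not bind calcium, by -0.01. The Doc2 proteins are high-affinity calcium sensors linked to spontaneous release, and both genes had a lower mean in the fructose group, Doc2a by -0.05 (0.02 without control replicate 5) and Doc2b by -0.18 ± 0.17 (SE).

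The synapsins tether vesicles to the reserve pool. Syn1, Syn2 and Syn3 differed by 0.03, -0.07 and 0.04. Among the priming genes and the effectors of the vesicle GTPase Rab3, 7 of 8 were higher, none past the threshold, and Unc13a, at 0.02, turned to -6.5e-05 after cyclic loess. Rims1, which encodes the RIM1 organiser of the active zone, ran from 10.33 to 10.65 with a median of 10.60 in control and from 10.42 to 10.78 with a median of 10.74 in fructose samples. 4 of the 6 fructose arrays lay above all control arrays, and the difference was 0.09 ± 0.07 (SE). Rims2, Unc13b, Rab3a and Rph3a, which encodes the Rab3 effector rabphilin, differed by 0.04, 0.08, 0.03 and 0.09. The giant scaffold genes Bsn and Pclo differed by 0.03 and 0.05, and the disassembly genes Nsf and Napa by 0.04 and 0.08. Of the SV2 genes, whose products are glycoproteins of the vesicle membrane, Sv2a differed by -0.01 and Sv2c by 0.03. Sv2b ran from 12.15 to 12.41 with a median of 12.29 in control and from 12.01 to 12.41 with a median of 12.19 in fructose samples. The fructose range covered nearly all of the control range, and the difference was -0.09 ± 0.06 (SE).

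The spread between arrays of a group was compared with that of genes in the same of those 5 signal classes. 15 of 40 members had a pooled SD above the 90th percentile of their class and 4 below the 10th, with the rest spread between. Those below the 10th were Rab3a (SD 0.05), Snap25 (0.05), Syt1 (0.06) and Syt11 (0.06). Those above the 90th were led by Syt2 (0.71), Unc13c (0.67), Rims3 (0.50), Vamp1 (0.41) and Doc2b (0.36). Without the 3 arrays high in Slc17a6 these 5 had SDs of 0.38, 0.11, 0.14, 0.22 and 0.19, so much of the spread lay in those arrays. Control replicate 8 held the lowest value of all 13 arrays for 12 members, and fructose replicate 3 the highest for 10. The same counts were not made over all genes, so they may not be particular to the members.

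**Figure D3:**
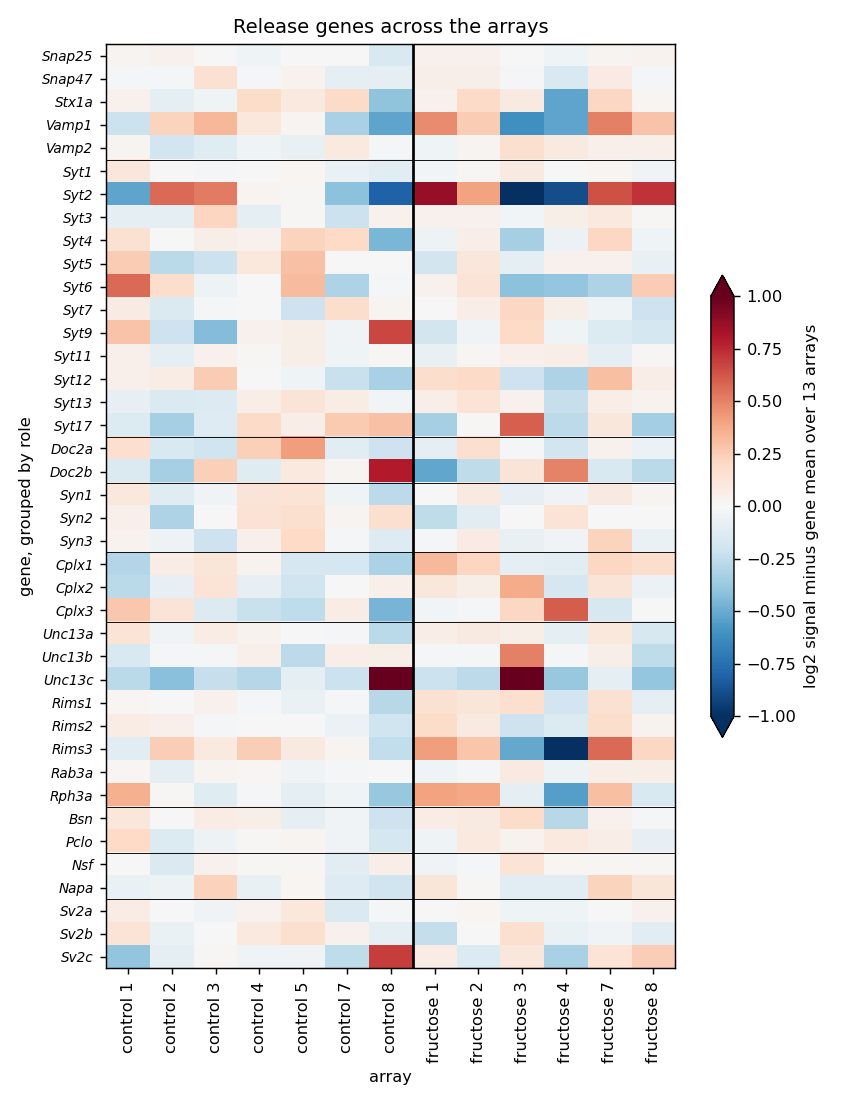
Log2 signal of each release gene (rows, grouped by role) minus its mean over the 13 arrays, by array (columns, control left and fructose right of the line), with colours ending at 1 in either direction. Rows such as Snap25, Syt1 and Rab3a are nearly flat, Syt2, Vamp1 and Rims3 are lower in control 8, fructose 3 and fructose 4 than on average, and Unc13c is high in control 8 and fructose 3.

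Syt2 ran from 7.93 (control replicate 8) to 9.31 (control replicate 2) with a median of 8.75 in control samples. In fructose samples it ran from 7.62 (replicate 3) to 9.61 (replicate 1) with a median of 9.26. The lowest 3 of the 13 arrays were the 3 high in Slc17a6, and fructose samples lay at both ends of the order. The difference was 0.19 with an interval from -0.53 to 0.91, and with 1 array left out it ran from 0.04 (without fructose replicate 1) to 0.43 (without fructose replicate 3). Vamp1 ran from 10.60 to 11.46 with a median of 11.15 in control and from 10.51 to 11.63 with a median of 11.39 in fructose samples. Its lowest arrays were again those 3, and the difference was 0.12 with an interval from -0.30 to 0.54. With 1 array left out it ran from 0.03 (without fructose replicate 7) to 0.25 (without fructose replicate 3). Rims3, a short RIM isoform gene, ran from 8.71 to 9.20 with a median of 9.04 in control and from 7.66 (replicate 4) to 9.52 (replicate 7) with a median of 9.20 in fructose samples. Its difference of -0.10 became 0.14 without fructose replicate 4 alone. Doc2b went the other way, from 8.0 to 9.12 (replicate 8) with a median of 8.36 in control and from 7.81 to 8.83 (replicate 4) with a median of 8.13 in fructose samples.

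Syt2 and Vamp1 varied together over the 13 arrays. Syt2 was taken as the reference because it had the widest spread of the members, which was seen in these data, and 39 correlations with it were computed. Pearson's r with Vamp1 was 0.979 and Spearman's rho 0.945, each with a permutation p = 1e-05, the smallest that the permutations can give, and an adjusted p = 0.00039. Without fructose replicates 3 and 4, the arrays farthest from the Syt2 median, r was 0.964. It was 0.946 without the 3 arrays high in Slc17a6, 0.966 over the control arrays and 0.984 over the fructose arrays. Over all 14505 other genes, Vamp1 had the highest r with Syt2, followed by Esrrg, an estrogen-related nuclear receptor (0.972), Kcnab3, a potassium channel beta subunit (0.963), C14h1orf146 (0.956) and Clec2l (0.947). These ranks describe these 13 arrays, and the genes in them share the same libraries.

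9 of the 39 correlations had an adjusted permutation p under 0.05 for Pearson's r, 7 positive and 2 negative, and 10 had one for Spearman's rho. No such count was made over all genes, so these counts are not a trait of the release genes. By r with Syt2, Cplx1 ranked 88 and Rims3 134 of the 14505 other genes. Many genes outside the list therefore followed Syt2 as closely. With Rims3 r was 0.803 and rho 0.874 (adjusted permutation p = 0.00175 and 0.0037), and r was 0.847 without the farthest arrays and 0.767 without the 3 arrays high in Slc17a6. With Cplx1 r was 0.838 and rho 0.797 (adjusted permutation p = 0.00476 and 0.0138), and r was 0.947 and 0.931 under the same removals. Syt12, Rims2, Napa and Snap47 also correlated positively, with r of 0.855, 0.837, 0.798 and 0.718, and with r of 0.808, 0.725, 0.811 and 0.705 without the farthest arrays. Without the 3 arrays high in Slc17a6 these were 0.696, 0.541, 0.737 and 0.594, so that of Rims2 fell most. Their rho values were 0.791, 0.773, 0.802 and 0.732, with adjusted permutation p-values for r from 0.00341 to 0.0237. Syt9 and Doc2b correlated negatively, with r of -0.709 and -0.707, rho of -0.746 and -0.780, and adjusted permutation p-values for r of 0.0184 and 0.0237. Without the farthest arrays these r values were -0.840 and -0.691, and without the 3 arrays high in Slc17a6 they were -0.757 and -0.462, so the correlation of Doc2b was weaker without those arrays. For Syt1 r was -0.134, and for Snap25 it was 0.585 with an adjusted permutation p = 0.0722. Pvalb, which encodes the calcium buffer parvalbumin and was looked at after the values were seen, had r = 0.809 with Syt2, rank 125 of 14505. Pvalb was lowest in the 3 arrays high in Slc17a6, at 8.40, 8.97 and 9.47, with 9.66 to 10.31 elsewhere. The part of regional or interneuron content in these patterns was not tested.

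**Figure D4:**
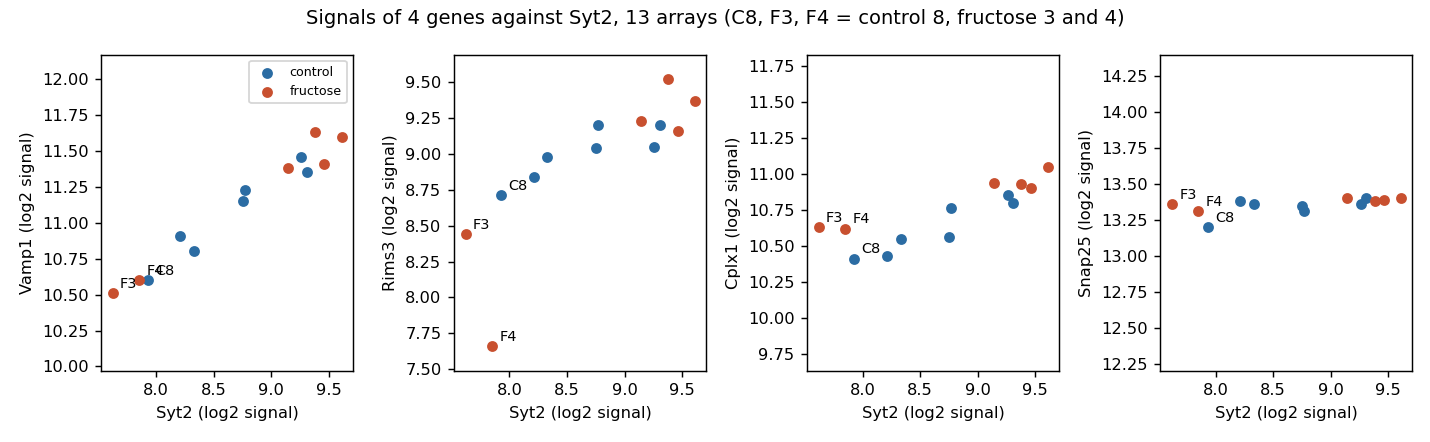
Log2 signal of Vamp1, Rims3, Cplx1 and Snap25 (y axes, the same span in each) against that of Syt2 (x axis) in the 13 arrays, with control in blue and fructose in red. Vamp1 follows Syt2 closely (r = 0.979), Cplx1 follows it with fructose arrays 3 and 4 above control array 8, and Snap25 is almost level.

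Without the 3 arrays high in Slc17a6, which leaves 6 control and 4 fructose arrays, still no member passed an adjusted p of 0.05 in limma (0 of 15633 probe sets, 0%, did). At an unadjusted p under 0.05 there were 7 of 40 members, 17.5%, against 3.46% of all genes. These 7 included Cplx1, Syt2, Vamp1 and Rims3, whose signals moved together, so they are not 7 separate observations, and the arrays were left out after their values were seen. Cplx1 differed by 0.30 ± 0.08 (SE), with an interval from 0.12 to 0.47, and was the 1 member whose groups did not overlap, which held for 0.71% of all genes. Syt2 differed by 0.62 ± 0.20 (SE), Vamp1 by 0.35 ± 0.12 (SE) and Rims3 by 0.27 ± 0.09 (SE). Sv2c, the SV2 form best known from the basal ganglia, differed by 0.21, Doc2b by -0.26 and Sv2b by -0.16. The adjusted p was 0.9996 or higher for each of them. Over all 13 arrays 0 members had groups that did not overlap, and 0.0276% of all genes did.

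Unc13c encodes Munc13-3, a priming factor best known from cerebellar granule cells. It stood at 9.44 in control replicate 8 and 9.53 in fructose replicate 3. The other control arrays ran from 7.64 to 7.97 and the other fructose arrays from 7.67 to 7.96, so each group held 1 array far above the rest. The difference between groups was 0.04 with an interval from -0.64 to 0.72, and 0.01 without the 3 arrays high in Slc17a6. Fructose replicate 4, high in Slc17a6, was not high in Unc13c, at 7.68. Of all 14506 genes, Unc13c had the widest gap between those 2 arrays and the highest of the other 11, 1.47. Ptpro (1.23) and Sptlc3 (1.13) were the only other genes with a gap over 1. Cerebellum markers did not share the pattern: their mean was 7.43 in control replicate 8 and 7.28 in fructose replicate 3, within the range of 7.22 to 7.46 of the other arrays. The mean of the 11 measured striatum markers was highest in the same arrays, at 8.69 and 8.51, with 7.98 to 8.22 elsewhere. Not every marker rose there. Drd1 and Penk were highest in these arrays, while Rasd2 (9.20 and 9.22) and Gpr6 (7.42 and 7.51) lay within the range of the others. The part of striatal content in the Unc13c result was not tested.

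**Figure D5:**
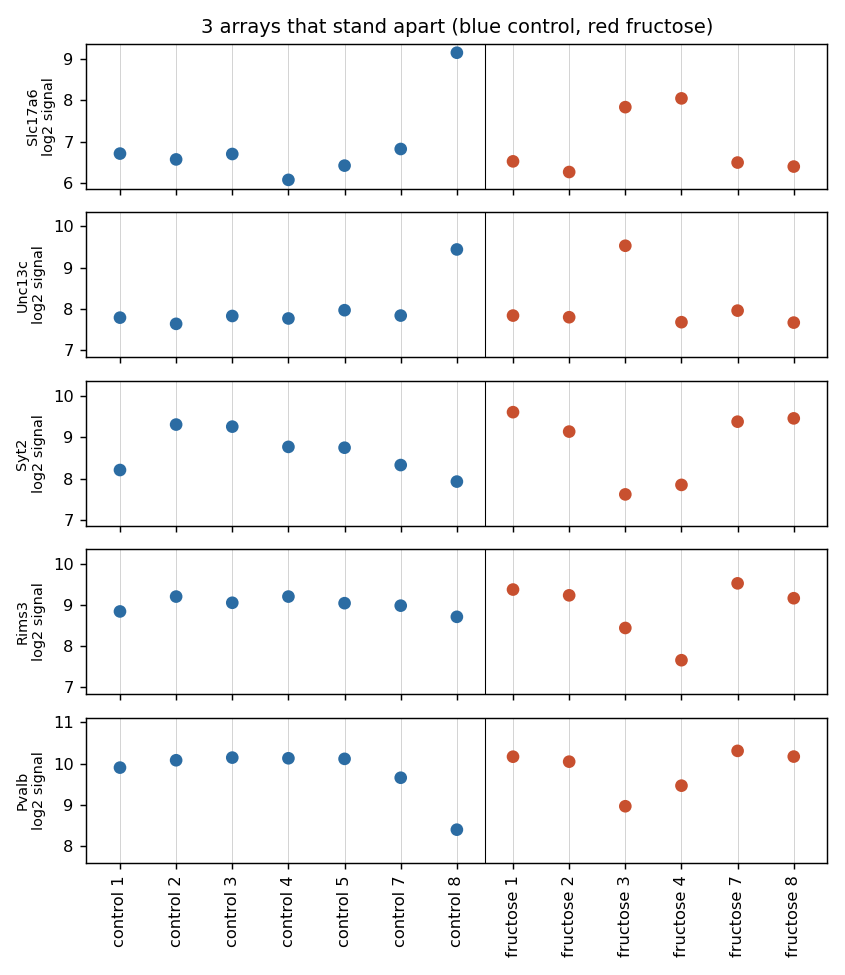
Log2 signal (y axes, the same span in each) of Slc17a6, Unc13c, Syt2, Rims3 and Pvalb in each array (x axis), control in blue and fructose in red. Control 8, fructose 3 and fructose 4 are the highest in Slc17a6 and the lowest in Syt2, Rims3 and Pvalb, while Unc13c is high in control 8 and fructose 3 only.

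Other genes of the release and recycling pathway were read for comparison, from a list of 93 of which 78 were measured (Munc18 and further SNAREs, Rab3 regulators, liprins, calcium channels and the endocytosis genes). 0 of the 78 passed the adjusted threshold and 1 had an unadjusted p under 0.05 in limma. 46 were higher, 59% against 54% of all genes, with a median difference of 0.01. This direction did not hold across scalings: 35 were higher after quantile normalization and 36 after cyclic loess. The share of all genes higher after these scalings is not given here, so these counts have no background beside them. The smallest unadjusted p was that of Sh3gl3, an endophilin gene, with means of 9.05 ± 0.08 over the control arrays (SD, n = 7) and 8.94 ± 0.08 over the fructose arrays (SD, n = 6), -0.11 ± 0.05 (SE) apart. Stx6, an endosomal syntaxin, differed by 0.11 ± 0.05 (SE), Rab27b, a GTPase of secretory vesicles, by -0.16 ± 0.09 (SE) and Rab5a, of early endosomes, by 0.09 ± 0.06 (SE). The pooled SD had a median of 0.11 over these 78 genes and 0.14 over the 40 members, with 0.12 over all genes.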

How the data were processed

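The 13 arrays measured RNA of rat brain, labelled from 100 ng with a whole transcript kit. The deposited log2 signals of 29214 probe sets came from RMA, with R 3.0.1, per the submitters' processing notes; the annotation build is not given in the sources used here. RMA evens out the arrays, so a change shared by all genes would not show. There are no detection p-values, so for dim probe sets signal cannot be told from background. Precision is limited by the number of arrays.

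Probe sets were named from the platform annotation: 15633 had a gene, 15310 of them a single symbol. Limma 3.58.1 in R 4.3.3 (lmFit, eBayes) compared fructose with control over all 15633, with Benjamini-Hochberg adjustment, a threshold of 0.05 and no filter, and was tested on simulated data. Alternatives left out arrays, renormalized, centred or weighted arrays, blocked on replicate number, changed the prior, filter, probe sets tested or probe set of a gene. All members are named; values by array are given for the 8 with the smallest unadjusted p, 4 core fusion genes and the 5 with the largest SD. Of the release and recycling genes outside the list, the 4 with the smallest unadjusted p are named. Correlations used 100000 permutations, 2-sided. A planned correlation with the thalamus and brainstem markers was not computed: control replicate 8 stood above all other arrays by 46.8% of the range, past the limit set for a pooled correlation. Members and lists were chosen with earlier results of these data known.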

Additional observations from a re-analysis of the deposited data

Results flagged for a closer look

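Each member was looked at within the control and within the fructose group for a highest or lowest array far from the others, by the gap to its nearest neighbour as a share of the range of the group (Dixon's 95% value). For independent groups, chance gives about 1 such array in 20 groups. Here 10 were found in 80 groups, but the members share the same 13 arrays. The count therefore cannot be set against that rate. In control replicate 8, an array high in Slc17a6, 6 of the 10 occurred. It was low in Snap25 (share 0.58, at 13.20 with the next at 13.31), Syt4 (share 0.677, at 9.18 with the next at 9.64), Unc13a (share 0.599, at 9.87 with the next at 10.11) and Rims1 (share 0.653, at 10.33 with the next at 10.54). It was high in Unc13c (share 0.816, at 9.44 with the next at 7.97) and Sv2c (share 0.622, at 9.43 with the next at 8.75). Fructose replicate 3 was high in Unc13c (share 0.844, at 9.53 with the next at 7.96). Fructose replicate 4 was low in Stx1a (share 0.742, at 10.33 with the next at 10.88) and in Syt13 (share 0.723, at 9.53 with the next at 9.80). Control replicate 2, an array with a narrow distribution, was low in Syn2 (share 0.645, at 11.48 with the next at 11.78).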

How the results depend on the processing

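No member and no probe set passed an adjusted p of 0.05 under any alternative run, and the counts of members higher (23 to 30 with 1 array left out) stayed within 1.5 times. The median member difference ran from 0.0119 to 0.0469 with 1 array left out. At an unadjusted p below 0.05 there were 348 probe sets, and 717 without control replicates 1 and 2, 547 without the 3 arrays high in Slc17a6 (an alternative added after the data were seen), 759 with array weights, 225 without the 30% dimmest and 871 over all probe sets, the last 2 from fewer and more probe sets, and 248 to 527 with 1 array left out (527 without control replicate 8). The count of members at that level, 1, was 2, 7 and 1 under the first 3 of these, 0 after quantile normalization, 0 after cyclic loess and 0 with the replicate block, and 0 to 3 with 1 array left out. It was 0 without control replicate 1 or 8 or fructose replicate 2, 7 or 8, 2 without control replicate 3 or 7 or fructose replicate 3, and 3 without fructose replicate 4. The cause was not tested.

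Titles give both groups the replicate numbers 1, 2, 3, 4, 7 and 8. Deviations of same-numbered arrays from their group means correlated from -0.335 to 0.187, and 0 of 6 control arrays correlated best with their own number. The labels do not say whether the numbers pair samples. These correlations cannot decide it, because a pairing by litter or handling need not show in them. Under the replicate block Cplx1 differed by 0.21 (unadjusted p = 0.0945 in limma).

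The sign of 17 of 40 members turned under at least 1 alternative, most of them near 0. After quantile normalization Snap47 was at -0.0094, Stx1a at -0.016, Syt1 at -0.0145 and Syt7 at -0.00042. After cyclic loess Snap47 was at -0.0063, Stx1a at -0.0131, Syt1 at -0.0077 and Unc13a at -6.5e-05. Without the 3 arrays high in Slc17a6, Syt1 was at -0.0149, Syt7 at -0.0272, Cplx3 at -0.0251, Unc13a at -0.0083, Unc13b at -0.0044, Rims3 at 0.27 and Sv2a at 0.0091. Without control replicates 1 and 2, Syt13 was at -0.0023, Unc13c at -0.0914, Sv2a at 0.0053 and Sv2c at -0.0615. With the replicate block Syt7 was at -0.00495, Syt11 at 0.00080, Doc2a at 0.0169 and Sv2a at 0.0105, and with array weights Sv2a was at 0.0036. The cause of these turns was not tested. With 1 array left out, differences that turned ran from -0.0083 to 0.0383 for Snap47, -0.0566 to 0.116 for Stx1a, -0.0119 to 0.0717 for Syt7, -0.0243 to 0.0111 for Syt11, -0.0879 to 0.0169 for Doc2a, -0.011 to 0.0561 for Syn1, -0.0046 to 0.0736 for Syn3, -0.0233 to 0.0545 for Unc13a, -0.0106 to 0.141 for Unc13b, -0.251 to 0.272 for Unc13c, -0.228 to 0.143 for Rims3, -0.0052 to 0.0866 for Bsn, -0.0311 to 0.0105 for Sv2a and -0.0322 to 0.149 for Sv2c.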
